A study of Mus musculus with 40 samples.

Results

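The 33 genes described here encode enzymes of cholesterol and fatty acid synthesis and their regulators. They were read in 4T1 cells, a mouse mammary carcinoma line of BALB/c origin, on 5 culture substrates with and without T cells. They were chosen by name. All 33 were found among the 21347 genes of the deposited table, and all 33 passed the filter on low values, at least 1 normalized read per M (per 1000000 reads) in at least 3 libraries, which left 14701 genes to test. By role they were 8 enzymes of the mevalonate pathway, 11 enzymes from squalene to cholesterol, 4 regulators and carriers, 9 fatty acid enzymes and 1 glycerolipid enzyme. The first 2 sets together are called the 19 sterol enzymes.

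Tissue culture plastic was used bare (uncoated) or after coating with 250 µg/ml of a matrix protein, which was fibronectin, vitronectin or one of the collagens I and IV. Carcinoma cells were seeded at 10 k per cm2, and co-culture wells then received T cells from C57Bl6 spleens at 80 k per cm2. Both kinds of well had interleukin 2 at 30 U/mL for the 24 h of co-culture. Free and trypsinised cells were pooled, so a co-culture library mixes the RNA of both cell types, and fewer cells of a type cannot be told apart from less RNA per cell. Co-cultures gave 3 libraries for collagen I, 4 for collagen IV, 4 for fibronectin, 3 for vitronectin and 4 for uncoated plastic. The 4T1 cells alone gave 4 libraries for collagen I, 4 for collagen IV, 5 for fibronectin, 4 for vitronectin and 5 for uncoated plastic. They came from 5 experiments, which are the replicates, all with the same carcinoma line.

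Libraries held 18.95 to 239.1 M assigned reads, with a median of 34.6 M and the second largest at 47.7 M. The 20 T cell markers summed to 23.9 to 3840 per M in co-cultures, against 2.85 to 6.02 per M in 4T1 alone. The 10 carcinoma epithelium markers measured summed to 1570 to 3470 per M in co-cultures, against 2600 to 3730 per M in 4T1 alone.

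Cells build cholesterol from acetyl-CoA by way of mevalonate, farnesyl diphosphate and squalene, and fatty acids from malonyl-CoA through fatty acid synthase, followed by elongation and desaturation. Genes of both routes are targets of the SREBP transcription factors, membrane proteins that are processed and enter the nucleus when sterols in the endoplasmic reticulum are low and are held back by INSIG proteins when sterols are high. SREBP2, the product of Srebf2, is known mainly for the sterol genes, and SREBP1, the product of Srebf1, mainly for the fatty acid genes. SREBPs are known to act together with NF-Y, which binds CCAAT boxes, and with Sp1.

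Promoter sequence was found in RefSeq (GRCm38.p6) for 26 of the 33 members. Fdps, Fdft1, Sqle, Stard4, Scd1, Scd2 and Fads1 were not matched. The 250 bases before the start were searched on both strands for TCACNCCAC, a form of the SREBP site, for the NF-Y box CCAAT, for the E-box CACGTG and for the Sp1 box GGGCGG, each counted by itself whether or not it overlapped another. Members and genes tested were counted by gene, with a match in any promoter of the gene, while all promoters were counted singly. CCAAT stood in 15 of 16 sterol enzymes (93.8%) and in 2 of 6 fatty acid enzymes (33.3%) with a promoter. It stood in 41.0% of the 9608 genes tested that had a promoter and in 33.8% of all 32851 promoters. GGGCGG stood in 14 of the 16 (87.5%) and 3 of the 6 (50%), against 64.2% of genes tested and 32.7% of all. CACGTG stood in 3 of the 16 (18.8%) and 0 of the 6, against 9.94% and 6.02%. TCACNCCAC was matched in 1 member, Hmgcs1, against 1.2% of genes tested and 1.05% of all. These are matches of letters and say nothing of binding. Shown 5′ to 3′ are 3 sterol enzymes that fell on collagen I in the tests described further on, and 2 fatty acid enzymes of high level, one with CCAAT and one without. Capitals mark CCAAT on either strand (ATTGG on the opposite one) and, in Hmgcs1, the TCACNCCAC match. In Fasn a CCAAT and an ATTGG overlap.
Hmgcs1 (chr13:119690101-119690350, plus strand): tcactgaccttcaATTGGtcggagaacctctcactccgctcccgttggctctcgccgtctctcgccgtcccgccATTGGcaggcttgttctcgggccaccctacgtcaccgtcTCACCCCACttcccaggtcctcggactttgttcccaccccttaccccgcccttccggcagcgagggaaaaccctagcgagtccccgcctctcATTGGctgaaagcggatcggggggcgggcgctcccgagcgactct
Mvd (chr8:122443423-122443672, minus strand): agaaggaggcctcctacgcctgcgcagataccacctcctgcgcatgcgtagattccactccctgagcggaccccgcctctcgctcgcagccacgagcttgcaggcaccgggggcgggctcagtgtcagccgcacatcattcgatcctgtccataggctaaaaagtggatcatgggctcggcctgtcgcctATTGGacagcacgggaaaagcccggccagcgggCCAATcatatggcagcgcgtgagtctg
Nsdhl (chrX:72918271-72918520, plus strand): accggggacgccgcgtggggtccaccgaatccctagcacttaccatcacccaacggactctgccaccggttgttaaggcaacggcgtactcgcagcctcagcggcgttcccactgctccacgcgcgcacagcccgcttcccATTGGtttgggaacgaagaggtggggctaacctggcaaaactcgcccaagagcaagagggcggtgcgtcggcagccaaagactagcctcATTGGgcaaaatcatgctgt
Fasn (chr11:120824548-120824797, minus strand): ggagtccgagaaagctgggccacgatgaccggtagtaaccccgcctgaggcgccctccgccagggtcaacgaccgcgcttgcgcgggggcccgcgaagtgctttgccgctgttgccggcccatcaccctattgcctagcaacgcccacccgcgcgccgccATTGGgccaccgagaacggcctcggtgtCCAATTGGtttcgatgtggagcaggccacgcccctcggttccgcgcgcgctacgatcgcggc
Acly (chr11:100528001-100528250, minus strand): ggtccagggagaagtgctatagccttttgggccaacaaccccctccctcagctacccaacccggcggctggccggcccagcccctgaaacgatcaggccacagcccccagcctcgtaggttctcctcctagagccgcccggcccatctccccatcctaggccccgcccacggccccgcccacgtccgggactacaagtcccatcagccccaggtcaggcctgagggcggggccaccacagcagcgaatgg

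Per length, the most abundant member in uncoated wells of 4T1 alone was Scd2, a stearoyl-CoA desaturase, at 125 ± 36.9 per M per kb of annotated exon (SD, n = 5). Fasn, the fatty acid synthase, followed at 87.6 ± 9.83 and Acly, the ATP citrate lyase that supplies acetyl-CoA, at 66.2 ± 1.79. The highest sterol enzyme was Acat2, the cytosolic acetoacetyl-CoA thiolase, at 44.1 ± 4.96 per M per kb. Fads2, the delta-6 desaturase, came next at 32.0 ± 1.89 per M per kb. The ranges of these 5 did not overlap. Srebf2 (23.0 ± 2.00), the squalene epoxidase Sqle (22.2 ± 0.805), the isomerase Idi1 (21.7 ± 4.28) and Insig1 (19.3 ± 4.03 per M per kb) followed it and overlapped each other. The lowest were Lpin1, a phosphatidate phosphatase, at 0.825 ± 0.305 and the sterol reductase Tm7sf2 at 0.776 ± 0.104 per M per kb, which also overlapped. In the GENCODE M21 annotation (GRCm38) exons of another gene cover 26.7% of the exon bases of Fdps, 18.3% of Fdft1, 12.1% of Hmgcs1 and 12.1% of Tm7sf2. The other gene lies on the same strand for Fdps and Tm7sf2, and on the opposite strand, which the library kit does not mark, for Fdft1 and Hmgcs1. How reads on shared bases were counted is not given in the sources used here, so the counts of these 4 genes are uncertain to that extent.

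The means of the sterol and of the fatty acid enzymes were lower on collagen I than on uncoated plastic in every experiment. In 4T1 alone the mean of the 19 sterol enzymes on collagen I differed from that of the uncoated well of the same experiment by -0.24 ± 0.10 on the log2(per M + 1) scale (SD over 4 experiments), below 0 in all 4. The 9 fatty acid enzymes differed by -0.15 ± 0.07, also below 0 in all 4. Without the experiment in the model, limma called 0 of 33 members at an adjusted p of 0.05 (11 at an unadjusted p under 0.05, and 0 by edgeR), when 0.0952% of all genes tested were called. The members' median log2 difference was -0.20, against 0.01 for all genes. With the experiment as a replicate block, 8 of 33 members fell and 0 rose, when 0.211% of all genes tested were called lower, 0.469% higher and 0.68% in either direction. The 8 were all sterol enzymes: Acat2, Hmgcs1, Mvd, Idi1, Fdft1, Lss, Cyp51 and Nsdhl. These calls depend on which experiments are included. With the block, 3 members were called without experiment 1, 0 without experiment 2, 1 without experiment 3, 0 without experiment 5 and 17 without experiment 4. The shares of all genes tested called in those fits were 0.435%, 0.102%, 0.252%, 0.0952% and 1.74%, in the same order. In the 22 libraries of 4T1 alone, fitted by themselves with the block, 19 of 33 were called, all lower, when 1.29% of all genes tested were called lower and 3.14% in either direction. They were the same 8 with Mvk, Fdps, Sqle, Msmo1, Hsd17b7, Insig1, Srebf2, Acly, Scd1, Scd2 and Fads2.

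Taken one experiment at a time, 13 of 19 sterol enzymes, 3 of 4 regulators and carriers and 5 of 9 fatty acid enzymes were lower on collagen I than on uncoated plastic in all 4 experiments with 4T1 alone. That is 21 of 33 members with 0 higher in all 4, when 11.4% of all genes tested were lower in all 4. Many library names carry a tag, R2 or R3, whose meaning is not given in the sources used here. It differed between the collagen I and the uncoated well of experiments 2, 3 and 5 and was R3 for both in experiment 4. There the sterol enzymes of 4T1 alone differed by -0.12, against -0.25, -0.23 and -0.37 in experiments 2, 3 and 5. In co-culture the tag was the same for both wells in experiments 2 and 5 and differed in experiment 4. The sterol enzymes there differed by -0.26 and -0.32 in experiments 2 and 5, and by -0.13 in experiment 4. A fit that includes the tag is given further on. The co-cultures are separate wells with their own uncoated wells, but they come from experiments 2, 4 and 5, which also gave pairs alone. The pairs in co-culture and alone are therefore not independent, and the same holds for the other coats. Over the 3 pairs in co-culture and the 4 pairs alone, 19 of 33 members (57.6%) were lower on collagen I in every pair and 0 were higher in every pair, when 2.46% of all genes tested were lower and 4.2% higher. They were 11 sterol enzymes (Acat2, Hmgcs1, Idi1, Fdps, Fdft1, Sqle, Lss, Cyp51, Msmo1, Nsdhl and Hsd17b7), Insig1, Srebf2 and Stard4, and the 5 fatty acid enzymes Acly, Elovl6, Scd1, Scd2 and Fads2. The carcinoma epithelium markers summed to 2600 to 3520 per M on collagen I alone, against 2940 to 3730 per M on uncoated plastic alone. Their mean log2 level was lower on collagen I in 4 of 4 experiments, with a mean difference of -0.14 ± 0.10 (SD). When each library was scaled to the same mean log2 level of these markers, the members' median difference without the block was -0.02, against 0.19 for all genes, and their part in the result was not tested. T cell markers summed to 3.49 to 5.03 per M on collagen I alone, against 2.85 to 4.97 per M on uncoated plastic alone.

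**Figure D1:**
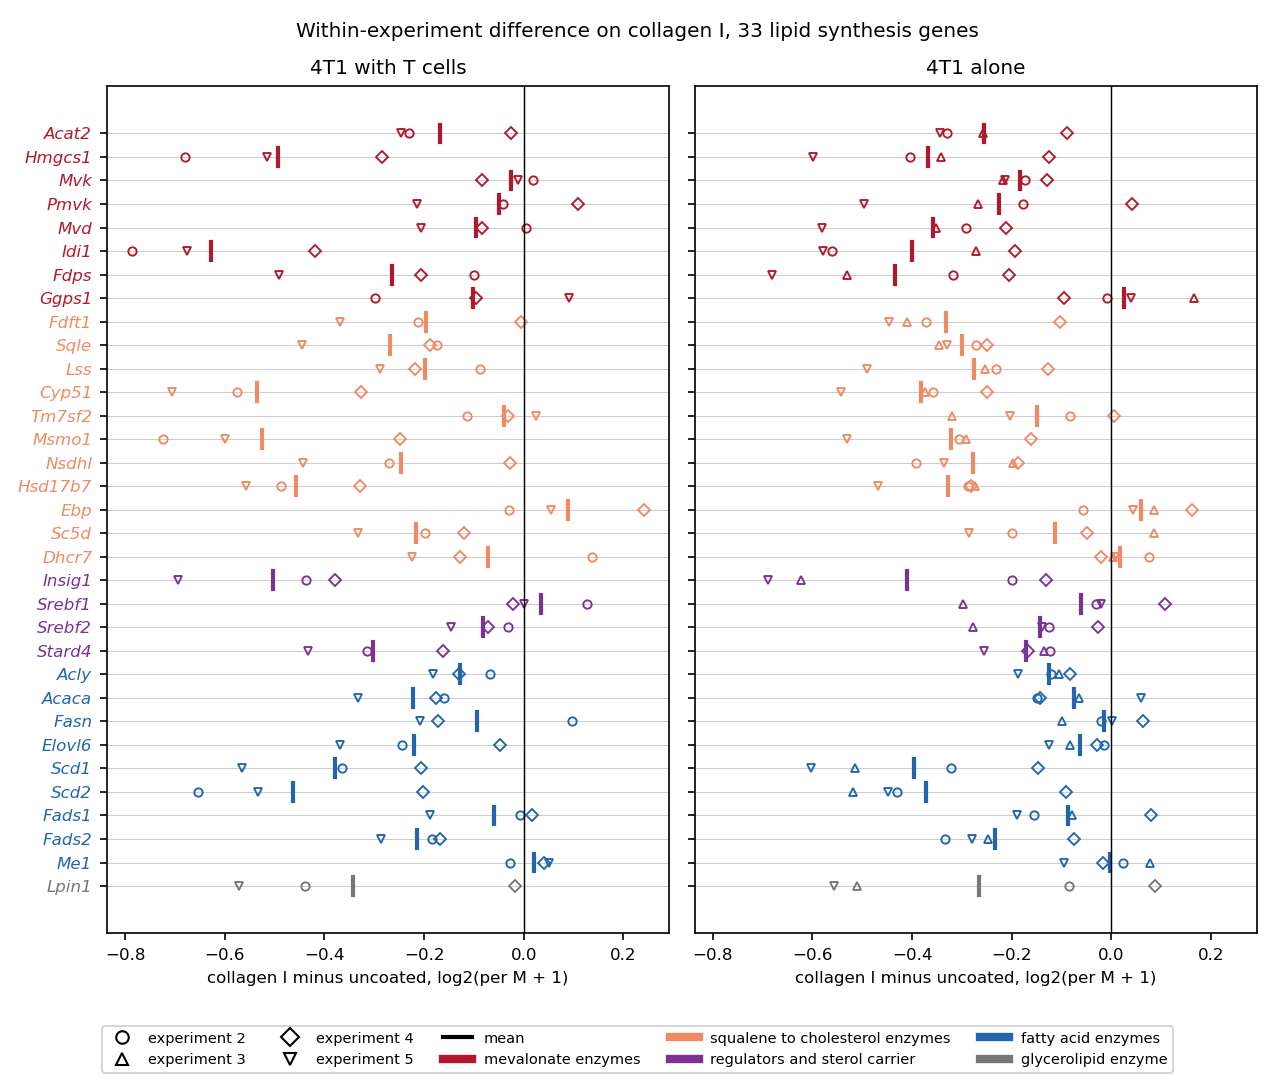
Each point is the log2(per M + 1) difference, collagen I minus uncoated, of 1 gene (down the page, coloured by role) in 1 experiment, for co-cultures (left) and 4T1 alone (right), and bars are means. Cyp51, Hmgcs1, Idi1, Insig1, Scd1 and Scd2 lie left of 0 in every experiment, while Ebp, Dhcr7, Ggps1, Me1 and Fasn scatter about 0 in 4T1 alone.

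Among the mevalonate enzymes, Hmgcs1, the HMG-CoA synthase (chr13:119690379-119708260 in GRCm38, as for the positions that follow), had 49.0, 49.7, 59.4 and 61.1 per M on collagen I alone in experiments 2 to 5, against 59.4, 65.1, 63.3, 64.9 and 93.1 per M on uncoated plastic alone in experiments 1 to 5. The groups overlap, experiment 5 was the highest on each substrate, and within each experiment the collagen I well was the lower one. With the block Hmgcs1 fell by 0.36 ± 0.07 on the log2 scale (SE, adjusted p = 0.0117, limma), and without it the difference was -0.32 ± 0.16 (adjusted p = 1.0). Mvd, the mevalonate diphosphate decarboxylase (chr8:122433601-122443422), had 14, 11.4, 12.8 and 11.6 per M on collagen I alone, against 15.3, 17.3, 14.8, 15 and 17.9 per M on uncoated plastic alone. Its groups do not overlap, and it fell by 0.36 ± 0.07 with the block (adjusted p = 0.00535, limma). Idi1, the isopentenyl diphosphate isomerase (chr13:8885501-8892451), had 53.5, 56.7, 60 and 67.0 per M on collagen I alone, against 62.7, 79.4, 68.6, 68.8 and 101 per M on uncoated plastic alone. It overlapped between the groups and fell by 0.40 ± 0.09 with the block (adjusted p = 0.0356, limma).

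The remaining mevalonate enzymes were less even. Fdps, the farnesyl diphosphate synthase, had 10.4, 7.80, 11.1 and 10.4 per M on collagen I alone, against 10.2, 13.2, 11.7, 12.9 and 17.3 per M on uncoated plastic alone. It was lower in all 4 experiments, and its difference of -0.38 ± 0.11 did not pass with the block (adjusted p = 0.152, limma). Acat2 fell by 0.23 ± 0.06 with the block (adjusted p = 0.0476, limma). The kinases Mvk and Pmvk had differences of -0.17 ± 0.08 and -0.22 ± 0.09 and did not pass. In the fit of 4T1 alone with the block Fdps (adjusted p = 0.00943) and Mvk (0.0218, limma) passed, and Pmvk (0.162) did not. Ggps1, which makes geranylgeranyl diphosphate, used for protein prenylation, stood at -0.01 ± 0.11 (adjusted p = 1.0), with 2 experiments below 0 and 2 above.

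Between squalene and cholesterol, Cyp51, the lanosterol demethylase (chr5:4081145-4104746), had 61.0, 53.2, 53.8 and 58.1 per M on collagen I alone, against 72.6, 78.5, 69.3, 64.1 and 85.1 per M on uncoated plastic alone. The groups do not overlap, and Cyp51 fell by 0.39 ± 0.08 with the block (adjusted p = 0.0129, limma). Sqle, a rate-limiting enzyme of the pathway (chr15:59315077-59331192), had 106, 94.4, 98.4 and 99.7 per M on collagen I alone, against 126, 128, 120.2, 117 and 126 per M on uncoated plastic alone. All 4 collagen I wells were below all 5 uncoated wells, yet its difference of -0.31 ± 0.09 did not pass in the fit of all 40 libraries with the block (adjusted p = 0.166, limma). Fitted on 4T1 alone (22 libraries) with the block, it did (-0.31 ± 0.04, adjusted p = 0.000327, limma). Fdft1, the squalene synthase, fell by 0.31 ± 0.07, the sterol dehydrogenase Nsdhl by 0.28 ± 0.07 and Lss, the lanosterol synthase, by 0.27 ± 0.06 with the block. Hsd17b7, Msmo1, Sc5d and Tm7sf2 had differences of -0.34 ± 0.09, -0.32 ± 0.09, -0.14 ± 0.05 and -0.16 ± 0.11 and did not pass. In the fit of 4T1 alone with the block Hsd17b7 (adjusted p = 0.00181) and Msmo1 (0.027, limma) passed. Sc5d (0.177) and Tm7sf2 (0.452) did not. Ebp and Dhcr7, which act late in the pathway, stood at 0.08 ± 0.07 and 0.02 ± 0.06.

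Of the regulators, Insig1, itself a known SREBP target (chr5:28071363-28078662), had 51.5, 32.4, 48.3 and 50.1 per M on collagen I alone, against 54.8, 59.2, 50.5, 53.0 and 81.3 per M on uncoated plastic alone. It was lower on collagen I in all 4 experiments, with overlapping groups, and the difference of -0.43 ± 0.11 did not pass with the block (adjusted p = 0.0754, limma). Srebf2 (chr15:82147181-82205379) had 163, 145, 150 and 133 per M on collagen I alone, against 172, 178, 176, 153 and 147 per M on uncoated plastic alone, a difference of -0.14 ± 0.06 (adjusted p = 0.48). Srebf1 had 104, 85.3, 115 and 105 per M on collagen I alone, against 112, 107, 105, 107 and 107 per M on uncoated plastic alone, a difference of -0.06 ± 0.07 (adjusted p = 0.961). Srebf2 was lower in all 4 experiments and Srebf1 in 3 of 4. Stard4, a sterol carrier, stood at -0.17 ± 0.05 (adjusted p = 0.164) and was lower in all 4. In the fit of 4T1 alone with the block Insig1 (adjusted p = 0.0393) and Srebf2 (0.0304, limma) passed. Srebf1 (0.502) and Stard4 (0.0998) did not.

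Among the fatty acid enzymes, the stearoyl-CoA desaturases Scd1 and Scd2 put the double bond into saturated acyl chains. Scd2 (chr19:44293674-44306864) had 409, 412, 613 and 759.9 per M on collagen I alone, against 580.3, 552, 590.4, 654 and 1037 per M on uncoated plastic alone. Its near neighbour Scd1 (chr19:44394455-44407879) had 46.3, 36.1, 55.8 and 62.5 per M on collagen I alone, against 52.5, 58.2, 52.0, 61.9 and 95.4 per M on uncoated plastic alone. Both overlapped between the groups and were lower on collagen I within each experiment. With the block Scd2 differed by -0.40 ± 0.11 (adjusted p = 0.091, limma) and Scd1 by -0.41 ± 0.10 (adjusted p = 0.0568, limma). Fads2 had 84.9, 81.4, 96.4 and 92.3 per M on collagen I alone, against 109, 107, 96.8, 102 and 112 per M on uncoated plastic alone, a difference of -0.24 ± 0.10 (adjusted p = 0.514). In the fit of 4T1 alone with the block Scd1 (adjusted p = 0.00945), Scd2 (0.00927), Fads2 (0.00563) and Acly (0.0426, limma) passed.

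Fasn (chr11:120805846-120824547), which carries out the core of fatty acid synthesis, had 1055, 872, 945 and 821 per M on collagen I alone, against 1065, 1071, 934, 904 and 821 per M on uncoated plastic alone. The groups overlap over nearly their whole range, and the difference was -0.03 ± 0.10 with the block. Acaca, the acetyl-CoA carboxylase, stood at -0.11 ± 0.07, the elongase Elovl6 at -0.08 ± 0.05, the delta-5 desaturase Fads1 at -0.10 ± 0.07 and Me1, the malic enzyme that supplies NADPH, at 0.01 ± 0.07, and none of these 4 passed. Lpin1 stood at -0.25 ± 0.17 and did not pass.

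**Figure D2:**
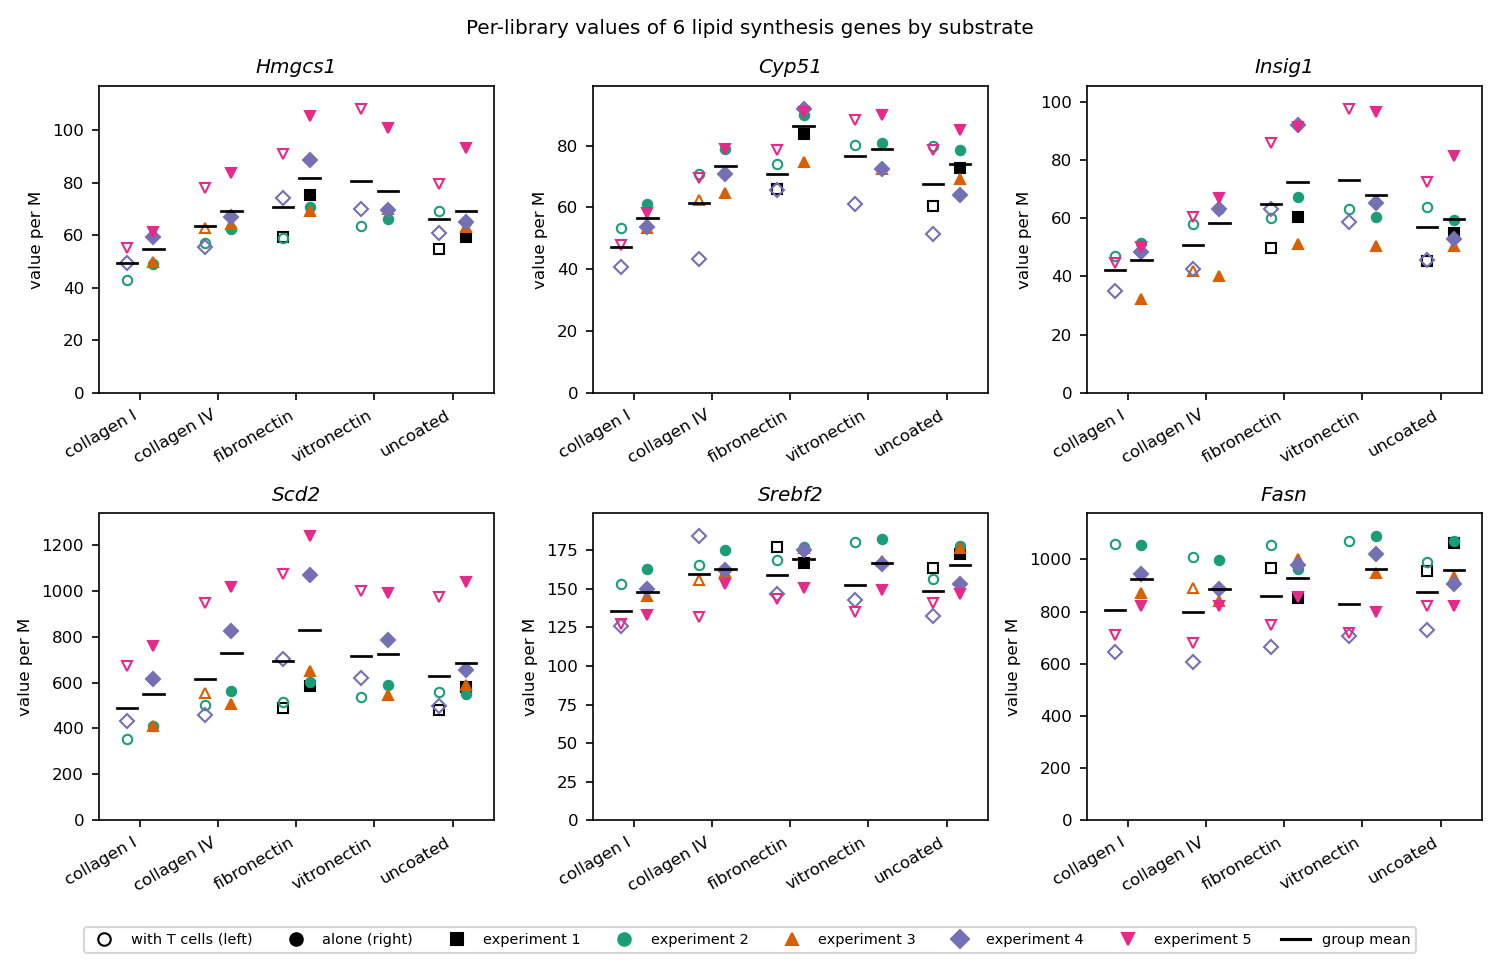
Values per M (vertical axis, from 0) of 6 genes on the 5 substrates, open points for co-cultures to the left of filled points for 4T1 alone, marked by experiment, with bars at group means. Cyp51 on collagen I alone lies at 53.2 to 61.0 per M, below the 64.1 to 85.1 per M of uncoated plastic alone, and Fasn shows no such step.

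In co-culture the members were again lower on collagen I. The sterol enzymes differed from the uncoated well with T cells of the same experiment by -0.24 ± 0.10 and the fatty acid enzymes by -0.20 ± 0.09 (SD over 3 experiments), each below 0 in all 3. Without the block limma called 0 of 33 members (7 at an unadjusted p under 0.05, 0 by edgeR), when 0.0068% of all genes tested were called. With the block 6 of 33 fell and 0 rose, when 0.129% of all genes tested were called lower and 0.306% in either direction. They were Hmgcs1, Idi1, Cyp51, Msmo1, Hsd17b7 and Stard4. Without experiment 4 and with the block 13 were called, and 0 without experiment 2 and 0 without experiment 5, when 0.803%, 0.0136% and 0.0136% of all genes tested were called. The carcinoma epithelium markers summed to 2090 to 3220 per M on collagen I with T cells, against 2240 to 3440 per M on uncoated plastic with T cells. Their mean log2 level was lower on collagen I in 3 of 3 experiments, with a mean difference of -0.12 ± 0.07 (SD). The members' median difference without the block was -0.17, against 0.00 for all genes, and with that scaling it turned to 0.04, against 0.21 for all genes. T cell markers summed to 23.9 to 1380 per M on collagen I with T cells, against 24.2 to 1330 per M on uncoated plastic with T cells, and the part of either marker set in the result was not tested.

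Idi1 had 48.4, 54.6 and 57.8 per M on collagen I with T cells in experiments 2, 4 and 5, against 58.0, 84.1, 73.4 and 92.8 per M on uncoated plastic with T cells in experiments 1, 2, 4 and 5. The groups do not overlap, and Idi1 fell by 0.58 ± 0.11 with the block (adjusted p = 0.00715, limma). Hmgcs1 had 42.9, 49.6 and 55.2 per M on collagen I with T cells, against 54.8, 69.4, 60.7 and 79.4 per M on uncoated plastic with T cells, and fell by 0.48 ± 0.08 (adjusted p = 0.00477). Cyp51 had 53.2, 40.7 and 47.8 per M on collagen I with T cells, against 60.3, 79.8, 51.3 and 78.5 per M on uncoated plastic with T cells, and fell by 0.52 ± 0.09 (adjusted p = 0.00477). Hmgcs1 and Cyp51 each overlap between the groups by a narrow margin. The sterol oxidase Msmo1 fell by 0.50 ± 0.11, the sterol reductase Hsd17b7 by 0.44 ± 0.10 and Stard4 by 0.29 ± 0.06.

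Collagen I was also compared with the mean of the other 3 coats in 4T1 alone, which uses the same collagen I wells and no uncoated wells. Without the block 1 of 33 members fell, when 0.0136% of all genes tested were called lower and 0.245% in either direction. It was Cyp51, by 0.48 ± 0.11 on the log2 scale (adjusted p = 0.0484, limma). No member was called without experiment 1, 2, 3 or 5, and the same held when single libraries were left out, except those of experiment 3 on collagen IV, fibronectin or vitronectin. With the block 15 of 33 fell and 0 rose, when 0.537% of all genes tested were called lower and 1.87% in either direction: Acat2, Hmgcs1, Mvd, Idi1, Fdft1, Sqle, Lss, Cyp51, Msmo1, Nsdhl, Hsd17b7, Insig1, Stard4, Scd1 and Scd2. With the block 6 members were called without experiment 5 and 9 without experiment 2, when 0.619% and 0.51% of all genes tested were called.

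Cyp51 averaged 56.5 ± 3.72 per M on collagen I alone (SD, n = 4), against 73.3 ± 6.83 per M on collagen IV (n = 4), 86.2 ± 7.17 per M on fibronectin (n = 5) and 78.9 ± 8.30 per M on vitronectin (n = 4). The collagen I wells did not overlap with those of any other coat. Insig1 averaged 45.6 ± 8.87 per M on collagen I alone, against 58.3 ± 12.2 per M on collagen IV, 72.5 ± 18.4 per M on fibronectin and 68.1 ± 19.8 per M on vitronectin. It fell by 0.53 ± 0.10 (adjusted p = 0.00144, limma with the block). Scd2 fell by 0.49 ± 0.09 (adjusted p = 0.00203), and Fasn stood at 0.00 ± 0.08.

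On collagen IV, a basement membrane collagen, no member passed the test in either culture in the fits given here. The sterol enzymes differed by -0.07 ± 0.02 in co-culture (SD over 3 experiments) and by -0.05 ± 0.09 in 4T1 alone (SD over 4 experiments). In co-culture limma called 0 of 33 members without the block (0 at an unadjusted p under 0.05, 0 by edgeR) and 0 with it, when 0.0136% and 0.286% of all genes tested were called. In 4T1 alone it called 0 without the block (0 at an unadjusted p under 0.05, 0 by edgeR) and 0 with it, when 0.0068% and 0.136% of all genes were called, 0.034% higher with the block. In co-culture 13 of 33 members, 8 of them sterol enzymes, were lower in all 3 pairs and 0 higher, when 9.86% of all genes tested were lower in all 3. The fatty acid enzymes there differed by -0.10 ± 0.08, below 0 in 3 of 3, and the carcinoma epithelium markers by -0.20 ± 0.30, lower in 2 of 3 (SD); their part in the result was not tested. In 4T1 alone 4 of 33 were lower in all 4 pairs and 1 higher, when 9.87% and 10.1% of all genes tested were. Over its 7 pairs 0 members were lower in every one, when 2.33% of all genes tested were.

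On fibronectin more members were higher than on uncoated plastic, by small amounts. The sterol enzymes differed by 0.09 ± 0.09 in co-culture (SD over 4 experiments, above 0 in 3) and by 0.10 ± 0.10 in 4T1 alone (SD over 5 experiments, above 0 in 5). In 4T1 alone 12 of 33 members were higher in all 5 experiments and 0 lower, when 8.41% of all genes tested were higher in all 5. In co-culture 13 were higher in all 4 pairs and 0 lower, when 11.6% of all genes tested were higher in all 4. The carcinoma epithelium markers differed by 0.08 ± 0.06 there (SD), higher in 4 of 4, and their part in the result was not tested. Over the 9 pairs of both cultures 1 of 33 members (3.03%), Dhcr7, was higher in every pair and 0 were lower. Of all genes tested 1.15% were higher in every pair and 0.918% lower. Dhcr7 alone is thus among both the 12 and the 13. No member passed in either culture in the fits of all libraries, and the fit of 4T1 alone with the block called 1, Cyp51, which rose by 0.22 ± 0.05 (adjusted p = 0.0425, limma), when 0.877% of all genes tested were called. In co-culture limma called 0 without the block (0 at an unadjusted p under 0.05, 0 by edgeR) and 0 with it, when 0% and 0% of all genes tested were called. In 4T1 alone it called 0 without the block (0 at an unadjusted p under 0.05, 0 by edgeR) and 0 with it, when 0% and 0.0068% of all genes were called. Hmgcs1 had 75.5, 70.8, 69.1, 88.7 and 105 per M on fibronectin alone, against 59.4, 65.1, 63.3, 64.9 and 93.1 per M on uncoated plastic alone, with a difference of 0.24 ± 0.14 (SD over 5 pairs) and the fibronectin well the higher one in each. Insig1 had 60.5, 67.4, 51.2, 91.9 and 91.2 per M on fibronectin alone, against 54.8, 59.2, 50.5, 53.0 and 81.3 per M on uncoated plastic alone. Its mean difference of 0.26 ± 0.30 (SD) includes 0.78 in experiment 4 and at most 0.18 in the others.

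On vitronectin the sterol enzymes differed by 0.15 ± 0.09 in co-culture (SD over 3 experiments) and by 0.04 ± 0.05 in 4T1 alone (SD over 4 experiments). In co-culture limma called 0 members without the block (1 at an unadjusted p under 0.05, 0 by edgeR) and 0 with it, when 0% and 0.0136% of all genes tested were called. In 4T1 alone it called 0 without the block (0 at an unadjusted p under 0.05, 0 by edgeR) and 0 with it, when 0% and 0.0136% of all genes were called. In co-culture 18 of 33 members were higher in all 3 pairs and 1 lower, when 18.2% of all genes tested were higher and 11% lower. In 4T1 alone 5 of 33 members were higher in all 4 pairs and 1 lower, when 6.92% and 7.66% of all genes tested were. Sqle, Cyp51 and Stard4 were higher in all 7 pairs, 9.09% of the members, when 1.93% of all genes tested were. The coats of an experiment were set against the same uncoated well, so their differences share it.

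**Figure D3:**
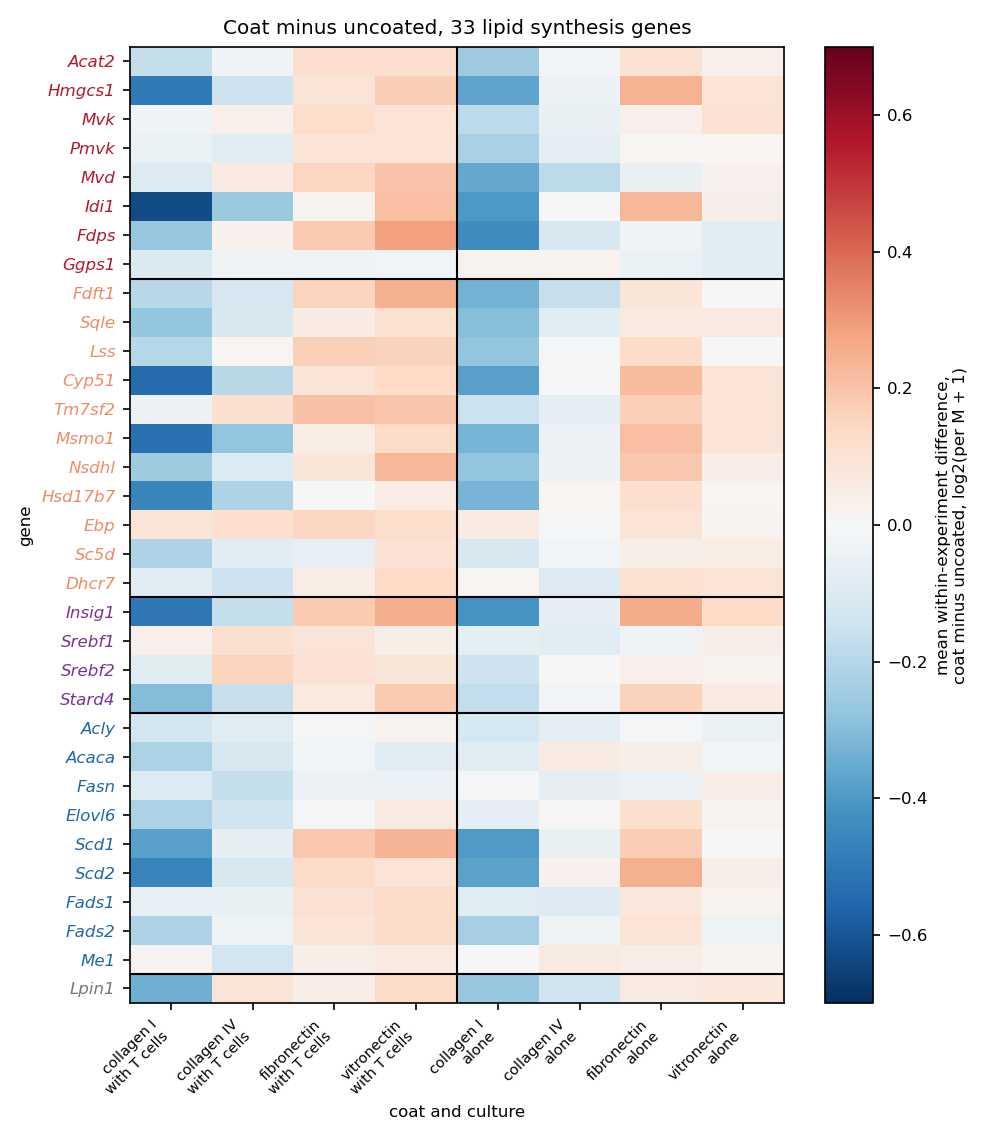
Mean within-experiment difference, coat minus uncoated, on the log2(per M + 1) scale for the 33 genes (down the page, grouped by role) in co-culture (left 4 columns) and 4T1 alone (right 4 columns). Collagen I shows the lower values, such as -0.38 ± 0.12 for Cyp51 in 4T1 alone (SD, n = 4), and fibronectin and vitronectin mostly small higher ones.

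Sterol and fatty acid enzymes differed in where their spread lay. In the 20 libraries of 4T1 alone from experiments 2 to 5, where each experiment has every substrate, the median sterol enzyme had 47.5% of its sum of squares between substrates and 35.9% between experiments. The median fatty acid enzyme had 23.8% between substrates and 71.0% between experiments. For all 14667 genes with any spread the medians were 16.5% and 46.4%. Sqle had 82.3% between substrates, Mvk 73.5% and Cyp51 73.0%. Fads1 had 79.2% between experiments, Fasn 74.2% and Scd2 72.2%. The sets were not uniform. Fads2 had 56.7% between substrates and 33.5% between experiments, and Acly 41.9% and 36.1%. Of the sterol enzymes, Sc5d had 65.5% between experiments, Ggps1 58.3%, Fdps 53.4%, Dhcr7 51.8% and Fdft1 51.7%. Ebp had 61.6% in neither.

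Collagen I gave the lowest of the 5 substrate means for 16 of 19 sterol and 7 of 9 fatty acid enzymes in these libraries, and fibronectin the highest for 13 of 19 and 7 of 9. The ratio of the highest to the lowest substrate mean was 1.66 for Insig1, 1.62 for Scd2 and 1.58 for Scd1. It was 1.09 for Fasn, 1.06 for Ebp and 1.05 for Me1. Experiment 3 gave the lowest of the 4 experiment means for 16 of 19 sterol enzymes, and experiment 5 the highest for 14 of 19 sterol and 6 of 9 fatty acid enzymes. Such counts of highest and lowest means were not made over all genes tested, so they describe the members only.

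Over the same 20 libraries, which share experiments and substrates, Pearson's r with the mean of the other sterol enzymes was 0.96 for Acat2, 0.96 for Nsdhl, 0.95 for Fdft1 and 0.96 for Insig1, and 0.12 for Ggps1 and 0.15 for Srebf2. Fasn had r = -0.13 with the sterol mean and -0.35 with the mean of the other fatty acid enzymes, while Scd1 had 0.97 with its own set. These r include differences between experiments, which held 57.4% of the sum of squares of Srebf2 and 74.2% of that of Fasn. Srebf2 was lower on collagen I than on uncoated plastic in each of the 7 pairs, as were 11 of 19 sterol enzymes. Within experiments, the sterol mean minus the fatty acid mean differed between collagen I and uncoated plastic by -0.04 ± 0.03 in co-culture, below 0 in 3 of 3, and by -0.09 ± 0.05 in 4T1 alone, below 0 in 4 of 4. These values describe sets of chosen genes and were not tested.

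**Figure D4:**
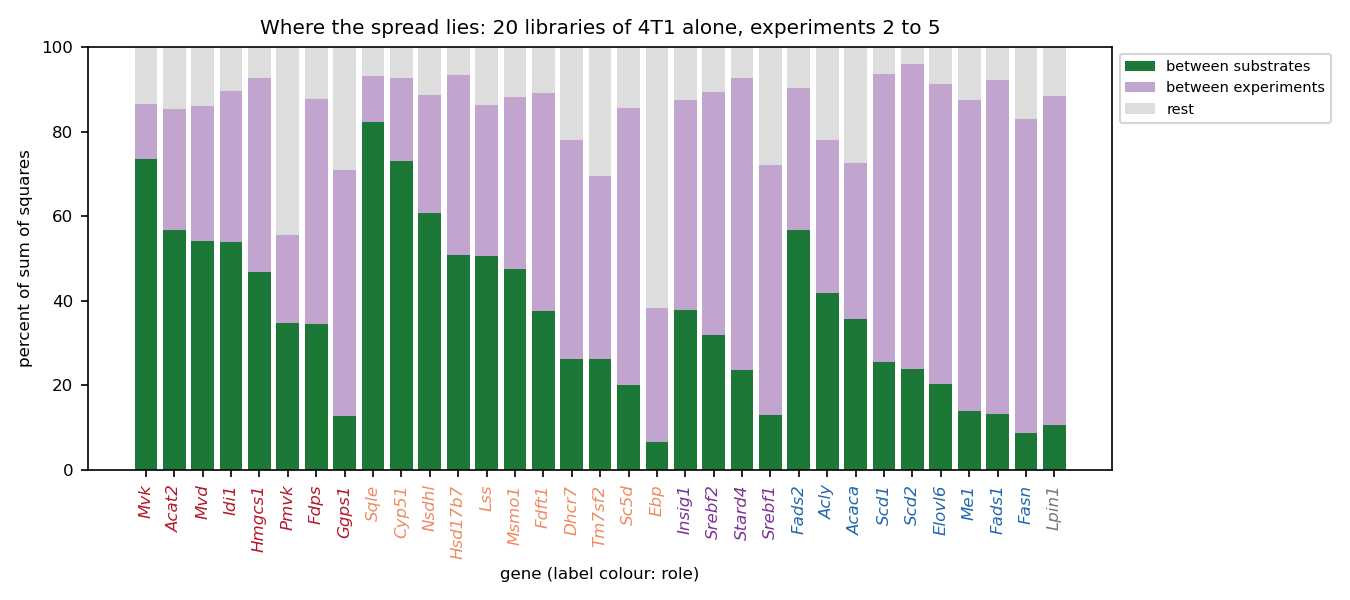
Bars give the percent of each gene's sum of squares over 20 libraries of 4T1 alone that lies between the 5 substrates, between the 4 experiments and in the rest. Sqle, Mvk and Cyp51 have the largest substrate parts of the sterol enzymes at 82.3%, 73.5% and 73.0%, and Fads1, Fasn and Scd2 are mainly the experiment part.

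With T cells many of these genes were lower per M. Averaged over substrates without the block, 11 of 33 members fell and 0 rose, when 12.2% of all genes tested were called lower and 25.2% in either direction. The median log2 difference was -0.11, against -0.01 for all genes. They were the mevalonate enzymes Acat2, Mvk, Pmvk, Mvd and Fdps, the later sterol enzymes Fdft1, Sqle and Cyp51, the fatty acid enzymes Acly and Fads2, and Srebf1. With the block 22 fell and 0 rose, 13 of 19 sterol and 6 of 9 fatty acid enzymes among them, when 23.4% of all genes tested were called lower and 45.8% in either direction.

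These calls depend on experiment 4 and on the scaling. T cell markers summed to 1270 to 3840 per M and carcinoma epithelium markers to 1570 to 2450 per M where experiment 4 had T cells. T cell markers summed to 246 to 363 per M in experiment 1, 40.2 to 64.0 in experiment 2, 27.7 in the single co-culture of experiment 3 and 23.9 to 53.4 in experiment 5. Without experiment 4, 0 of 33 members were called by limma without the block, when 2.92% of all genes tested were, and 14 fell with it, when 4.69% of all genes tested were called lower. When each library was scaled to the same mean log2 level of the carcinoma epithelium markers, the median difference was 0.11 for the members and 0.21 for all genes, and 0 members were called by limma, when 15.3% of all genes tested were. The part of T cell RNA in the lower values was not tested. In experiment 4 every library of 4T1 alone carried the tag R3 and no co-culture did. Within that experiment the tag and the T cells cannot be told apart.

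Mvk, the mevalonate kinase, had 16.2 to 23.0 per M on collagen I, 16.9 to 24.0 per M on collagen IV, 20.4 to 24.1 per M on fibronectin, 17.4 to 25.1 on vitronectin and 17.2 to 23.0 per M on uncoated plastic with T cells. In 4T1 alone it had 21.1 to 23.4 per M on collagen I, 22.7 to 25.3 per M on collagen IV, 24.1 to 28.2 per M on fibronectin, 25.6 to 28.9 on vitronectin and 24.6 to 25.7 per M on uncoated plastic. It fell by 0.24 ± 0.05 on the log2 scale (adjusted p = 0.00141, limma without the block), and the co-culture well was the lower one in 16 of 18 pairs. Its mean difference was -0.53 ± 0.11 in the 5 pairs of experiment 4 and -0.14 ± 0.14 in the other 13 (SD).

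Fdps fell by 0.28 ± 0.08 (adjusted p = 0.0136), Pmvk, the phosphomevalonate kinase, by 0.23 ± 0.05 (adjusted p = 0.00294) and Mvd by 0.22 ± 0.05 (adjusted p = 0.00639, limma without the block). Acat2, Pmvk and Mvd were lower in all 18 pairs, 3 of 33 members, when 0.51% of all genes tested were. In the 13 pairs outside experiment 4 their mean differences were -0.14 ± 0.05 for Acat2, -0.19 ± 0.09 for Pmvk and -0.22 ± 0.13 for Mvd (SD). Sqle fell by 0.19 ± 0.05 (adjusted p = 0.0172), with -0.49 ± 0.16 in experiment 4 and -0.09 ± 0.13 outside it.

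Hmgcs1 and Idi1, which were low on collagen I, had differences of -0.10 ± 0.08 (adjusted p = 0.334) and -0.05 ± 0.08 (adjusted p = 0.646) with T cells and did not pass without the block. With the block Hmgcs1 fell by 0.12 ± 0.04 (adjusted p = 0.00731, limma) and Idi1 did not pass. Insig1 and Srebf2 had differences of -0.08 ± 0.10 and -0.11 ± 0.04 and did not pass without the block, and both fell with it (adjusted p = 0.0152 and 0.00465, limma). Srebf1 fell by 0.11 ± 0.04 (adjusted p = 0.0408, limma without the block).

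Fads2 fell by 0.22 ± 0.06 with T cells (adjusted p = 0.00947, limma without the block), and its mean difference was -0.63 ± 0.09 in the 5 pairs of experiment 4 and -0.11 ± 0.11 in the other 13 (SD). Fasn had a median of 711 per M on collagen I, 786 per M on collagen IV, 859 per M on fibronectin, 717 on vitronectin and 889 per M on uncoated plastic with T cells. In 4T1 alone its medians were 908, 864, 962, 985 and 934 per M in the same order of substrates. Its difference of -0.18 ± 0.07 did not pass without the block (adjusted p = 0.0626), and it fell by 0.18 ± 0.05 with it (adjusted p = 0.00392, limma). Fasn was lower in all 5 pairs of experiment 4, with a mean of -0.50 ± 0.10, and in 7 of the other 13, with a mean of -0.05 ± 0.14 (SD). Scd1 and Scd2 had differences of -0.19 ± 0.11 and -0.17 ± 0.14 and did not pass without the block, and fell by 0.28 ± 0.05 and 0.23 ± 0.05 with it (adjusted p = 0.000311 and 0.0015, limma).

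The size of the T cell difference varied between experiments. The fits with the block count the wells of an experiment as separate, so their SE and p for T cells may be too small. A test over the 18 pairs called 16 of 33 members, when 40.4% of all genes tested were called, a similar share. They were 6 of 19 sterol enzymes, 7 of 9 fatty acid enzymes, Insig1, Srebf1 and Lpin1, and without experiment 4 the test called 0, when 5.52% of all genes tested were called. In experiment 4 the sterol enzymes differed by -0.23 ± 0.08 and the fatty acid enzymes by -0.38 ± 0.12 (SD, n = 5 pairs), with the fatty acid set the lower one in all 5. In experiment 2 the sterol enzymes differed by -0.10 ± 0.04 and the fatty acid enzymes by -0.06 ± 0.02, with the sterol set the lower one in all 5. Over all 18 pairs the sterol enzymes differed by -0.15 ± 0.08, below 0 in 18, and the fatty acid enzymes by -0.16 ± 0.16, below 0 in 16. Ggps1 was higher with T cells in all 5 pairs of experiment 4, at 0.45 ± 0.06, and lower in both pairs of experiment 1, at -0.20 ± 0.01 (SD). Between substrates the T cell difference passed in 0 of 33 members by limma (0 at an unadjusted p under 0.05, 0 by edgeR, 0 with the block), when 0% of all genes tested were called.

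**Figure D5:**
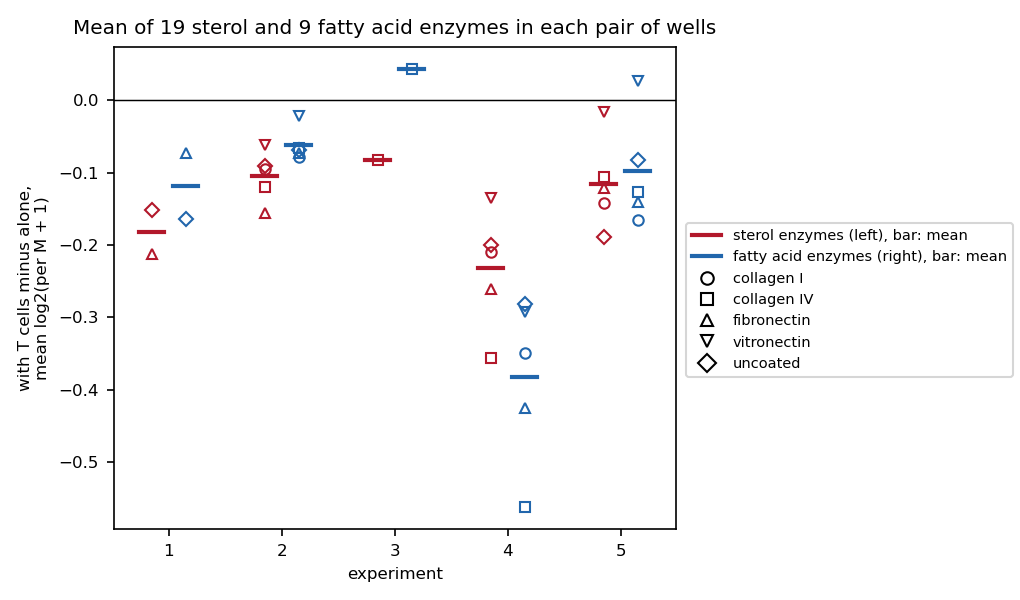
Difference with T cells minus alone in the mean log2(per M + 1) of the 19 sterol enzymes (left, red) and the 9 fatty acid enzymes (right, blue) for every pair of wells, by experiment, with bars for means. Experiment 4 is lowest for both sets, at -0.23 ± 0.08 for sterol and -0.38 ± 0.12 for fatty acid enzymes (SD, n = 5 pairs).

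A wider list of 46 tested genes around the pathway gave 1 call with the block in each collagen I against uncoated comparison, the same gene, higher on collagen I, when 0.469% of all genes tested were called higher in 4T1 alone and 0.177% in co-culture. Soat1, which esterifies cholesterol for storage, had 96.6, 109.6, 96.9 and 112 per M on collagen I alone, against 75.9, 73.7, 79.8, 78.7 and 74.9 per M on uncoated plastic alone. Its groups do not overlap, and it rose by 0.43 ± 0.09 in 4T1 alone without the block (adjusted p = 0.045), by 0.42 ± 0.05 with it (adjusted p = 3.2e-05) and by 0.27 ± 0.06 in co-culture with it (adjusted p = 0.0435, limma). Without the block Soat1 was the 1 of 46 called in 4T1 alone, when 0.0952% of all genes tested were called higher. In co-culture limma then called 0 (2 at an unadjusted p under 0.05, 0 by edgeR), when 0.0068% of all genes tested were called.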

How the data were processed

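RNA of 40 libraries was read with a kit that does not mark strand. Per the submitters' processing notes, STAR 2.6, featureCounts and edgeR 3.31.7 were used with mm10; their settings are not given in the sources used here. The deposited table holds a signal, reads per M scaled by the authors, with column sums of 956225 to 1037118. All values (100.0%) came out as whole reads within 0.01, which gives the depths. Of 21349 lines, 1 with a cell that is no number and 1 duplicate were left out, and 19 symbols had become dates.

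Values were tested as log2(per M + 1), a pseudocount of 1 that understates changes of low genes, with limma 3.58.1 in R 4.3.3 over the 10 groups (30 residual degrees of freedom) and Benjamini-Hochberg adjustment over 14701 genes, threshold 0.05, all tests two-sided. The recovered reads were also tested by edgeR 4.0.16. Figures used Python 3.11.15 and matplotlib 3.10.9. The limma and edgeR fits of collagen I against uncoated plastic in 4T1 alone, with and without the block, were tested on simulated data. The simulated reads held no differences between experiments, so they could not check how the block handles such differences. Replicate numbers mark experiments in the labels and so pair the wells: deviations of libraries from their group means correlated with a median of 0.478 within a number (156 pairs) and -0.131 between numbers (562 pairs), 37 of 40 libraries were closest to their own number, and 17 of 18 pairs of wells exceeded 0.1, the lowest at 0.085. The block is therefore printed beside each result it changes.

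Members and lists were chosen with earlier results of these data known. Named with values were 8 members throughout (Hmgcs1, Sqle, Insig1, Srebf2, Srebf1, Fasn, Scd1, Scd2) and, for collagen I in 4T1 alone and for T cells, the 4 sterol and 3 fatty acid enzymes of largest difference. Elsewhere members that passed were named, and others named with values were chosen after these were seen. Alternatives were another pseudocount, filter and scaling, edgeR, the block, 4T1 alone, and leaving out libraries or experiments. Positions and exon lengths are from GENCODE M21. Some genes around the pathway are not reported here.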

Additional observations from a re-analysis of the deposited data

Results flagged for a closer look

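Of 120 groups of values of the 15 members named by rule, 9 held a library that stood apart from the other libraries of its group, where chance gives about 1 in 20. In experiment 5 Hmgcs1 had 93.1 per M on uncoated plastic alone, against 59.4 to 65.1 per M in the other experiments, and 100.8 per M on vitronectin alone, against 66.2 to 70.1 per M. In the same uncoated well Insig1 had 81.3 per M, against 50.5 to 59.3 per M, Scd1 had 95.4 per M, against 52.0 to 61.9 per M, and Scd2 had 1037 per M, against 551.6 to 653.9 per M. Scd2 also had 972.9 per M on uncoated plastic with T cells in experiment 5, against 482.0 to 560.6 per M. In experiment 3 Insig1 had 32.4 per M on collagen I alone, against 48.3 to 51.5 per M, and 40.2 per M on collagen IV alone, against 63.0 to 66.9 per M. Fads2 had 64.9 per M on collagen IV with T cells in experiment 4, against 95.1 to 97.1 per M, in the co-culture with the most T cell marker reads.

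Cyp51 differed between collagen I and the other 3 coats in 4T1 alone by -0.48 on the log2 scale (adjusted p = 0.0484, limma without the block), lower in the collagen I wells, whose range of 53.2 to 61.0 per M lies below the 64.7 to 78.8 per M of collagen IV.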

How the results depend on the processing

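All counts here are of the 33 members called at an adjusted p of 0.05. They show only how the count moves with the fit. The share of all genes tested also differs between fits and is given above for some of them. Without that share a count says nothing of the members against other genes. For T cells added, 11 were called without the block, 22 with the replicate block, 22 with the block and the library tag, 23 by edgeR with the block, and 23, 22, 24 and 23 with the block without experiment 1, 2, 3 and 5. Leaving out 1 experiment gave 0 to 13, with 0 without experiment 4, and leaving out 1 library 7 to 12, with 7 without the vitronectin co-culture of experiment 4. Scaling to carcinoma epithelium markers gave 0, and there the differences of Acat2 (0.0624), Mvd (0.000685), Fdft1 (0.0549), Sqle (0.0362), Cyp51 (0.0219), Srebf1 (0.115), Acly (0.102), Fads2 (0.00301) turned positive, still below the median of all genes at 0.21; this scaling moves all genes of a library together. The test between experiments called 16, and 0 to 17 with 1 experiment left out.

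For collagen I against uncoated plastic in 4T1 alone, 0 were called without the block, 8 with it, 5 with block and tag, 10 by edgeR with the block, and 1 and 19 in 4T1 alone without and with the block. With the block, 3, 1 and 17 were called without experiment 1, 3 and 4, and 0 without experiment 2 or 5. In co-culture the counts were 0 without the block, 6 with it, 7 with block and tag, 6 by edgeR with the block, and 5, 6 and 13 with the block without experiment 1, 3 and 4. Against the other coats 1 was called, and 0 with no filter on low values, columns scaled to their total, DESeq2 size factors, quantile normalization or scaling to carcinoma epithelium markers. That count was 15 with the block, 17 with block and tag, 15 by edgeR with the block, 4 and 20 in 4T1 alone without and with the block, and 15, 9, 14, 18 and 6 with the block without experiment 1 to 5. Leaving out 1 experiment without the block gave 0 to 2, and 1 library 0 to 1. For fibronectin without T cells 1 was called when 4T1 alone was fitted by itself with the block. The cause of these changes was not tested. The sterol minus fatty acid difference on collagen I ranged over -0.10 to -0.07 and that with T cells over -0.05 to 0.03, on both sides of 0.

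Leaving out experiment 1, 2, 3 or 5 under the block was chosen after seeing the data. With 3 to 5 experiments a group, the differences on fibronectin and vitronectin did not pass in the fits of all libraries. T cell and carcinoma RNA are not separated in these libraries.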

Other observations

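With T cells 12 of the 46 wider pathway genes were called without the block, 7 higher and 5 lower, when 13.1% and 12.2% of all genes tested were, similar shares. That fit includes experiment 4. The lower ones were the citrate carrier Slc25a1, by 0.17 ± 0.05 on the log2 scale, Aacs by 0.23 ± 0.05, Mid1ip1 by 0.16 ± 0.04, Agpat2 by 0.15 ± 0.05 and Hadha by 0.08 ± 0.03. The higher ones were the cholesterol exporters Abca1, by 1.14 ± 0.31 (adjusted p = 0.0139), and Abcg1, by 1.4 ± 0.34 (adjusted p = 0.00762, limma without the block), with Abca7, Npc1, Lipa, Acss2 and Elovl5. Abca1 reached 21.3 per M and Abcg1 38.7 per M in the collagen IV co-culture of experiment 4, the library with the most T cell marker reads, against at most 0.0937 and 0.693 per M in any library of 4T1 alone. The cell type these reads come from was not tested.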
